A study of Homo sapiens with 24 samples.

Results

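A list of transcription factors that lay out mesoderm and endoderm in the embryo was examined at their promoters in EndoC-βH3 cells, a human beta-like cell line derived from fetal pancreas. The list holds 44 factors and is not complete, since other germ layer transcription factors lie outside it. Its members are 10 T-box genes (TBX), 5 GATA zinc fingers, 4 basic helix-loop-helix (bHLH) genes, 5 forkhead (FOX) genes, 3 SOX genes, 15 homeobox genes and the 2 odd-skipped zinc fingers OSR1 and OSR2, of 19676 protein-coding genes in all. The measurement is H3K4me3, a histone mark of active promoters, by MINT-ChIP. In this method the chromatin of each sample receives a barcode, and the samples are then mixed and precipitated together with an antibody. It was made in 4 non-senescent samples (control treatment) and 4 senescent samples (4-hydroxytamoxifen, 4-OHT, for 3 weeks), each of 500000 cells and all labelled WT. In this line 4-OHT activates a CreER recombinase that both states carry, which excises the SV40 large T antigen and hTERT genes that keep the untreated cells growing, so a single engineered line stands for beta cells.

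The value of a promoter is the strongest H3K4me3 region that lies within 2 kb of any start site of a protein-coding transcript of the gene. The level of a region is the authors' mean normalized count over the samples, and the density is that level per kb of region width, which is the scale on which genes are compared. The mean pools senescent and non-senescent cells and has no value per sample beside it, so the levels carry no replicate error and all contrasts between genes are descriptions without a test. The states are not compared, since the table holds them apart only in the authors' own comparison, which was not used. The depth of each sample is unknown. The 97545 regions of the table had a median level of 4.40, and the 77704 regions away from these start sites had a median level of 3.53 and a median density of 5.57 per kb.

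During gastrulation, signals of the NODAL, BMP, WNT and FGF families switch on T-box and GATA factors, and homeobox, forkhead, SOX and bHLH factors then divide mesoderm and endoderm into organ fields. In the adult most of these genes are active in a few lineages only. Their promoters usually lie in CpG islands, stretches rich in the dinucleotide CpG, and in cells that do not use them such promoters are known to carry the repressive mark H3K27me3, with or without H3K4me3. H3K27me3 was profiled in the same experiment and is not analysed here.

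The sequence at the start site was rich in CpG at most patterning factors, with and without an H3K4me3 region. A CpG ratio of at least 0.6, defined below, was found at 25 of the 30 with a region and 12 of the 14 without. Not all were rich, and PRRX1 had 6 CpG in the 250 bases before its start. The promoters below come from RefSeq (GRCh38) and run over the 250 bases before the start site, 5′ to 3′ on the strand of the gene, with each CpG in capitals. PITX3 (chr10:102241513-102241762, minus strand) and TBX20 (chr7:35254101-35254350, minus strand) overlapped a region, whereas MSX1 (chr4:4859415-4859664, plus strand) and FOXF2 (chr6:1389326-1389575, plus strand) did not. They are shown because the pairs differ in H3K4me3 and overlap in CpG number, with 23 CpG at PITX3, 31 at TBX20, 24 at MSX1 and 20 at FOXF2.
PITX3: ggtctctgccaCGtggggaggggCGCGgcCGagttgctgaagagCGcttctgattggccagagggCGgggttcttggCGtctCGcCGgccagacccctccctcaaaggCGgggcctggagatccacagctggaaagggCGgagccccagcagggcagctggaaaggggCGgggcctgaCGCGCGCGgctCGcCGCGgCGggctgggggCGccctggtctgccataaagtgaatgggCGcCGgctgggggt
TBX20: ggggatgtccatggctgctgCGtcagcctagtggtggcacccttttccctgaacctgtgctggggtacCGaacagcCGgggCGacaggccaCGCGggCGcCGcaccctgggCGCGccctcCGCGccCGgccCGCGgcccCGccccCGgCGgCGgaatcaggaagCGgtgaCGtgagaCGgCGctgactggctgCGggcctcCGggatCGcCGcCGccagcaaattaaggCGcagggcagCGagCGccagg
MSX1: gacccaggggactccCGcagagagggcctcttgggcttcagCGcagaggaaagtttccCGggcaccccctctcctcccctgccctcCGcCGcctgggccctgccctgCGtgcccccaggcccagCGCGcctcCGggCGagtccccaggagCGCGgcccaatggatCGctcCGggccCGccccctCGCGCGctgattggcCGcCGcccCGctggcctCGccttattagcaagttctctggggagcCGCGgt
FOXF2: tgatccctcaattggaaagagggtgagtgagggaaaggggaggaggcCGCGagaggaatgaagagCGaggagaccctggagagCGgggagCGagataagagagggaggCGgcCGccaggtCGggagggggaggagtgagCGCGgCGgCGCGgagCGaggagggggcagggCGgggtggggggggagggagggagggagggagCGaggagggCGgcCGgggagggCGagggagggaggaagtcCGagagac

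Of the 44 patterning factors, 30 (68.2%) had an H3K4me3 region at the promoter, against 74.1% of all protein-coding genes. With regions of a mean of at least 5 only, the count was 19 (43.2%) against 68.9% of all genes. The median level of those 19 was 12.1, against 53.9 over all genes with such a region. With a window of 5 kb the order turned, at 36 (81.8%) against 78.1%. Where a region was present it was weak and narrow. The median level was 7.42 mean normalized counts, against 49.3 over all genes with a region, and the median width was 703 bp against 2498 bp. In density the median was 9.0 per kb against 19.0 per kb. Below the lower quartile of all genes with a region lay 25 of the 30 by level and 21 of the 30 by density. At or above the median density of all genes with a region were 4 factors of 44 (OSR2, BARX1, PITX3 and TBX1), a mark that 37.1% of all protein-coding genes reached. At or below the median level of regions away from start sites were 9 of the 30, against 4.43% of all genes with a region. A width of exactly 500 bp, the smallest of any promoter region, was found at 7 of the 30 (23.3%), against 4.33% of all genes with a region. A level this low is a mean of a few normalized reads per sample, and a region that is present in the table at such a level was not set apart from background here.

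**Figure D1:**
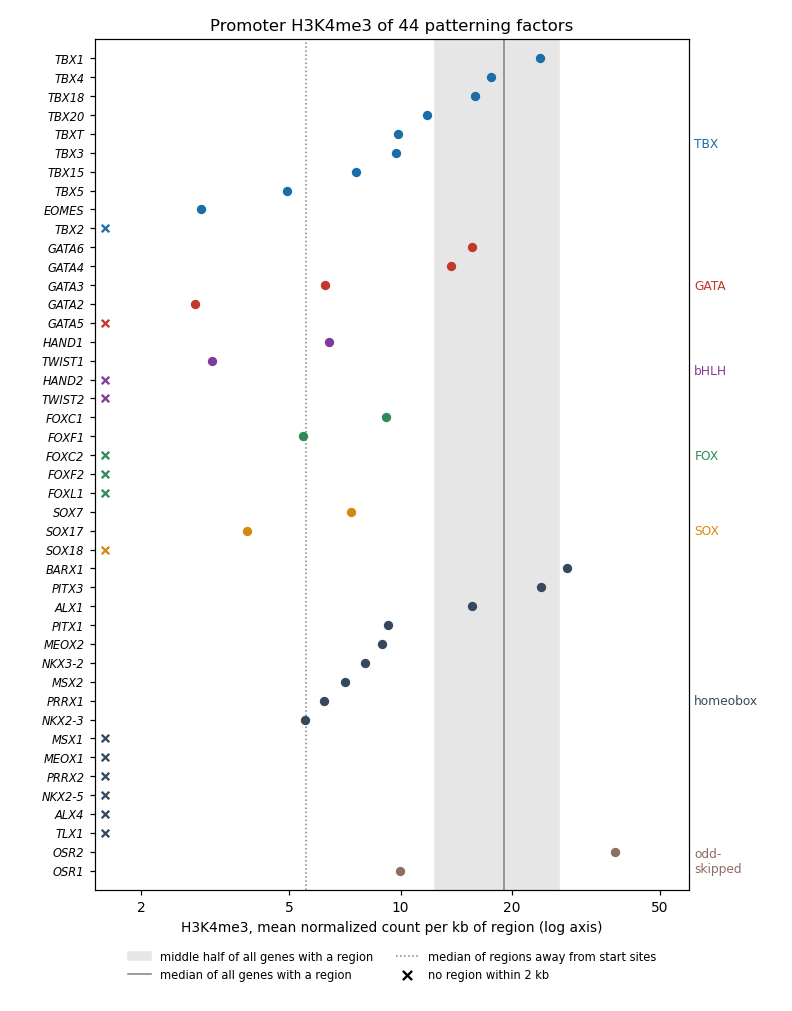
Density of promoter H3K4me3, in mean normalized counts per kb of region on a log axis, for each of the 44 patterning factors, grouped and colored by family. Points are the authors' pooled means and carry no error; crosses mark the 14 factors with no region, the grey band and line the interquartile range and the median (19.0) of all genes with a region, and the dotted line the median of regions away from start sites (5.57); OSR2, BARX1, PITX3 and TBX1 lie right of the median line.

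The T-box family had a region at 9 of its 10 genes, against 74.1% of all protein-coding genes, with levels from 1.45 to 23.7 and a median of 9.74. Within 2 kb of the canonical start alone the share was 60%, against 71.6% of all protein-coding genes, with EOMES, TBX4 and TBX5 lost. TBX1, which patterns the pharyngeal arches, was the strongest. Its region on chromosome 22 (19759636 to 19760634) had a level of 23.7 over 998 bp, a density of 23.8 per kb. The region ended 144 bp before the canonical start and lay downstream of other annotated starts of the gene. EOMES, which specifies definitive endoderm and early mesoderm, was the weakest, with a level of 1.45 over 500 bp on chromosome 3 (27724498 to 27724998), 1787 bp from its nearest start site. The density of 2.90 per kb at EOMES was below that of all but 0.92% of genes with a region. TBXT, or brachyury, the factor that defines nascent mesoderm, had a level of 7.66 over 779 bp that covered a start site upstream of the canonical one. The heart factor TBX20 had a level of 21.5 over 1831 bp across its start site, where a long noncoding RNA also starts. TBX3 had a level of 13.4 over 1383 bp across its start site, and TBX5, needed for the heart and forelimb, a level of 2.46 over 500 bp inside an intron. TBX15 and TBX18 had more than 1 region. TBX15 had a level of 8.91 over 1635 bp at the canonical start and of 9.74 over 1282 bp at an alternative start 73280 bp into the gene, whose region was taken as the promoter. TBX4, the hindlimb and lung factor, had a level of 12.0 over 686 bp, mostly in an intron. TBX2 had no region within 2 kb, the nearest being 2683 bp away with a level of 8.78.

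In the GATA family the level was carried by GATA4 and GATA6, the members that act in pancreatic endoderm. GATA4 on chromosome 8 (11702865 to 11710048) had a level of 98.5 over 7183 bp, so its density was 13.7 per kb. The region ran from -1337 to 5846 bp relative to the canonical start and included 4671 bp of intron. It was the single patterning factor with a promoter region of 4 kb or more, a width that 13.7% of all protein-coding genes had. A second GATA4 region, at an alternative start, had a level of 18.8 over 1981 bp. GATA6 on chromosome 18 (22169535 to 22171307) had a level of 27.6 over 1772 bp and a density of 15.6 per kb. It ran from -54 to 1718 bp relative to the start site and also held a start of the antisense RNA GATA6-AS1, whose reads cannot be told from those of GATA6. GATA3 and GATA2 lay below the median level of regions away from start sites. GATA3, a factor of T cells and other lineages, had a level of 3.13 and GATA2, a factor of blood and endothelium, a level of 1.4, each over 500 bp at an alternative start. On chromosome 3 the GATA2 region ran from 128490616 to 128491116, inside an intron, with a density of 2.79 per kb, the lowest of the 30. GATA5 had no region within 10 kb, and the nearest lay 44038 bp from its start.

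The odd-skipped pair held the strongest promoter of all. OSR2, a zinc finger of palate, tooth and limb mesenchyme, had a level of 129 over 3402 bp on chromosome 8 (98943562 to 98946964) and a density of 37.8 per kb, higher than 93.0% of genes with a region. The region ran from -880 to 2522 bp relative to the canonical start, mostly over intron. It was also the region chosen for STK3, so its level cannot be assigned to OSR2 alone. OSR1, a factor of intermediate mesoderm and kidney, had a level of 7.18 over 720 bp at its start on chromosome 2 (19357965 to 19358685), a density of 9.98 per kb.

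Among the 15 homeobox genes 9 had a region, with levels from 3.00 to 40.7 and densities from 5.54 to 28.2 per kb. PITX3, a factor of the lens and of midbrain dopamine neurons, was the strongest. Its region on chromosome 10 (102240978 to 102242678) had a level of 40.7 over 1700 bp, a density of 23.9 per kb, and lay across the start site whose sequence is printed above. BARX1, which acts in stomach mesenchyme, had a level of 20.8 over 737 bp on chromosome 9 (93951003 to 93951740), the highest density of the family at 28.2 per kb. That region lay 1691 bp from the nearest start, at the far end of the gene, with 114 bp in the last untranslated stretch and 623 bp downstream of the gene. The regions closer to BARX1 start sites had levels of 2.00 and 4.45. ALX1, a craniofacial factor, had a level of 15.6 over 999 bp from its start into the gene, and MEOX2, a somite factor, a level of 12.1 over 1360 bp. NKX3-2, a factor of the axial skeleton, had a level of 9.35 in a region that ended 55 bp before the start. The limb mesenchyme factor PRRX1 (5.63), the hindlimb factor PITX1 (5.13) and MSX2 (3.70) had lower levels. NKX2-3, a factor of gut and spleen mesenchyme, had the lowest, 3.00 over 542 bp on chromosome 10 (99534788 to 99535330). No region lay within 2 kb of MSX1, MEOX1, PRRX2, NKX2-5, ALX4 or TLX1, among them the cardiac factor NKX2-5.

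The bHLH, FOX and SOX genes had low levels throughout. Of these 12 genes 6 had a region, and no level exceeded 5.08. HAND1, a factor of the heart and extraembryonic tissue, had a level of 3.52 over 549 bp across its start on chromosome 5 (154478016 to 154478565), and TWIST1, a factor of mesenchyme, a level of 1.6 over 500 bp on chromosome 7 (19116639 to 19117139), within the gene. Their densities were 6.41 and 3.11 per kb. FOXC1, a somite and eye factor, had a level of 5.08 over 557 bp on chromosome 6 (1611862 to 1612419), 1947 bp past its start, and a weaker region nearer the start with a level of 2.46. The stronger FOXC1 region lay wholly within the gene, with 242 bp in coding and 315 bp in untranslated sequence. FOXF1, a factor of the mesoderm around the gut, had a level of 2.73 over 500 bp on chromosome 16 (86509273 to 86509773), upstream of its start, and of 1.36 within the gene. SOX7, a factor of blood vessels, had a level of 4.11 over 560 bp on chromosome 8 (10731080 to 10731640). SOX17, which specifies definitive endoderm, had a level of 1.93 over 500 bp, also on chromosome 8 (54455854 to 54456354), and both regions lay wholly upstream. The genes of these families with no region were HAND2, TWIST2, FOXC2, FOXF2, FOXL1 and SOX18.

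The factors nearest the 2 kb limit were as follows. Just inside it were FOXC1 at 1947 bp, NKX2-3 at 1846 bp, EOMES at 1787 bp and BARX1 at 1691 bp. Just outside it, counted from the canonical start, were FOXC2 at 2423 bp with a level of 14.7, MSX1 at 2660 bp with 2.29, TBX2 at 2683 bp with 8.78 and NKX2-5 at 2800 bp with 2.07. Of the 14 factors with no promoter region, 6 had none within 10 kb of the start either. These were GATA5, FOXF2, FOXL1, SOX18, MEOX1 and PRRX2.

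**Figure D2:**
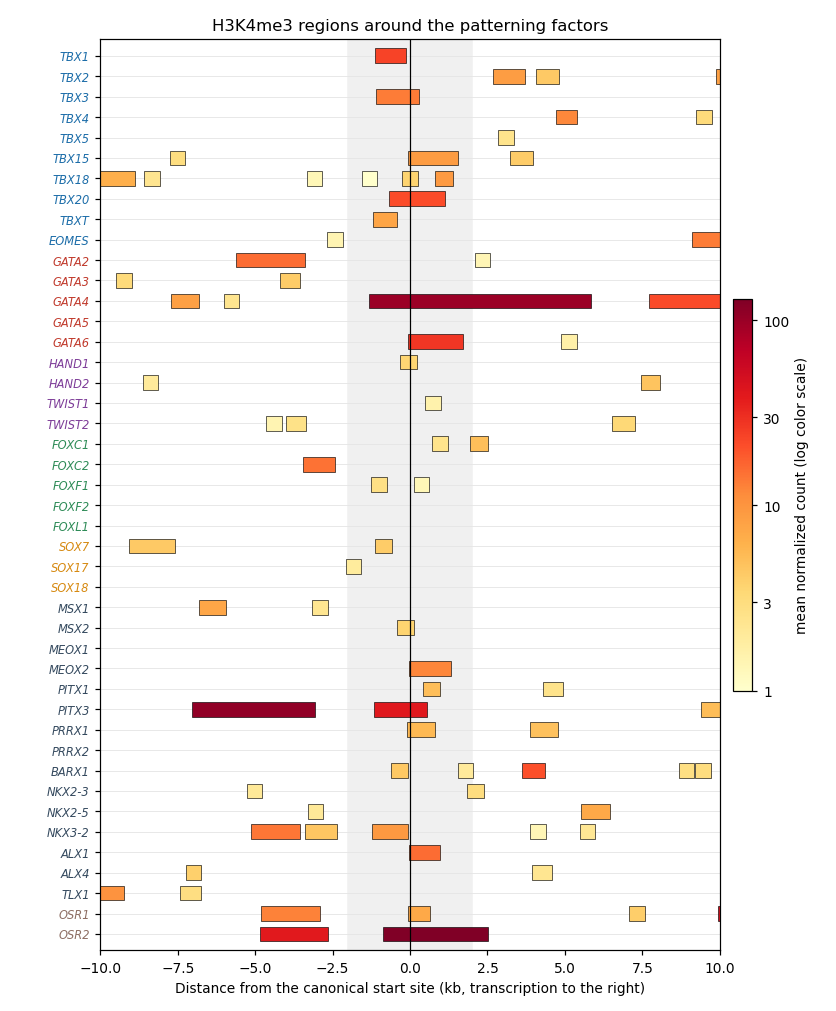
H3K4me3 regions within 10 kb of the canonical start site of each factor, with transcription to the right, drawn to scale and colored by mean normalized count on a log color scale; the shaded band is the 2 kb on either side. GATA4 (98.5, 7183 bp) and OSR2 (129, 3402 bp) have broad strong regions over the start, many others have a small region beside it, and 6 factors have none.

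The region often lay beside the start site, as the map shows. The strongest region covered the canonical start at 12 of the 30 factors (40.0%), against 66.2% of all genes with a region. It held any start site of the gene at 17 of the 30 (56.7%), against 76.6% of all genes with a region. This position was not particular to these factors. Among genes with a region, the canonical start was covered at 38.1% of neural patterning factors and 28.6% of HOX genes. The share was also 38.1% at other germ layer genes. These lists are described below. Taken over the 4 kb around the canonical start, and with genes that have no region counted as 0, the median length under H3K4me3 regions was 512 bp for the patterning factors and about 1920 bp (1919.5) for all protein-coding genes. No base of these 4 kb was covered at 19 of the 44 (43.2%), against 28.4% of all protein-coding genes. Across the 30 factors, level and width moved together (Spearman's rho 0.94, n = 30 genes), as they did across all genes with a region (0.87). Both come from the same reads, and genes are not independent replicates.

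**Figure D3:**
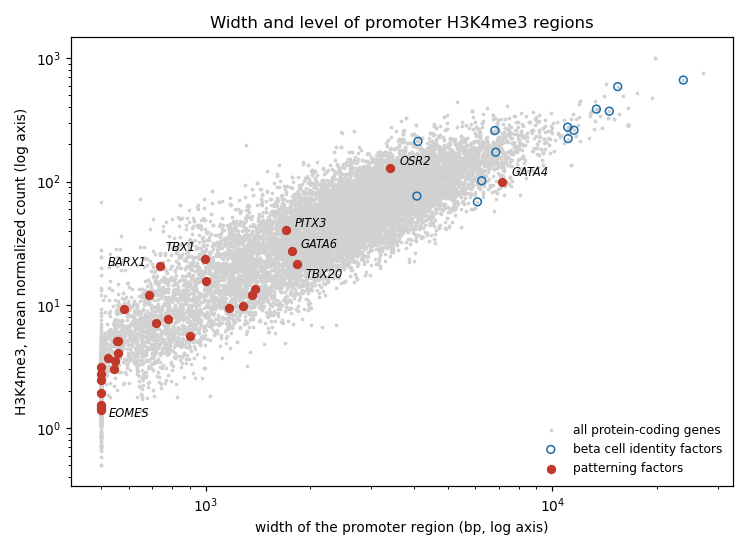
Width of the promoter region in bp against its mean normalized count, both on log axes, for all genes with a region (grey), the patterning factors (red) and beta cell identity factors (open blue circles). Most patterning factors lie at the narrow and weak end, many at 500 bp, and GATA4 at 7183 bp lies among the beta cell identity factors in width.

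CpG content did not separate the factors with a region from those without. In the 300 bases around the canonical start (250 before and 50 after) the ratio of observed to expected CpG had a median of 0.75 over the 44 factors, close to 0.78 over all protein-coding genes. The median was 0.77 for the 30 with a region (range 0.55 to 1.02) and 0.74 for the 14 without (range 0.19 to 0.98), and the ranges overlap. At a ratio of at least 0.6 were 37 factors, of which 25 (67.6%) had a region with a median density of 9.24 per kb. Among all 13319 genes with such CpG-rich starts, 91.8% had a region, with a median density of 19.9 per kb. In the highest stratum, at a ratio of at least 0.8, 11 of 15 factors had a region, against 93.9% of all genes. Among the factors with no region, 12 of 14 were CpG-rich, FOXC2 (0.98) and FOXF2 (0.96) the most. MEOX1 (0.19) was the single factor with a CpG-poor start under 0.4.

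**Figure D4:**
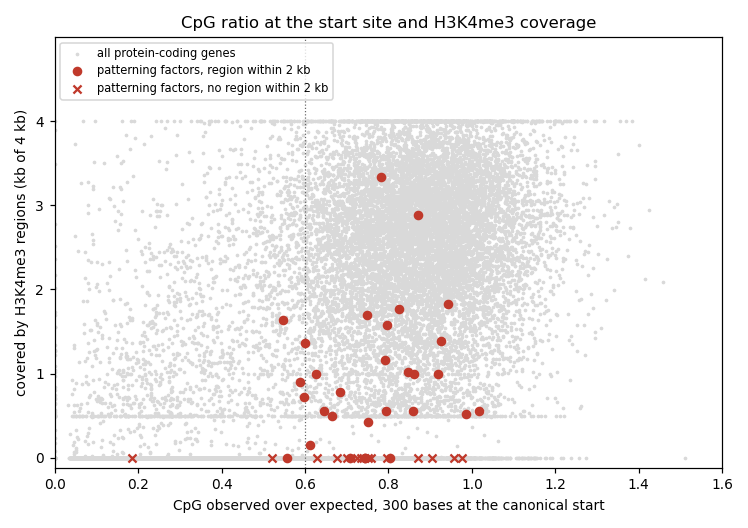
Ratio of observed to expected CpG in the 300 bases at the canonical start against the length covered by H3K4me3 regions in the 4 kb around it, for all protein-coding genes (grey) and the patterning factors with (red dots) or without (red crosses) a region within 2 kb of a start site. The factors share the CpG range of other genes right of the dotted line at 0.6, and 19 of 44 lie at 0 kb, against 28.4% of all protein-coding genes; dots at 0 kb have their region near another start site.

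Short promoter motifs were counted on both strands of the 300-base RefSeq promoters, which held 25 of the 44 factors, taking for each gene the 1 promoter closest to the canonical start. The TATA box (TATAAA) was found at 2 of the 25 (8.0%), EOMES and MEOX2, against 9.43% of 15307 promoters. The CCAAT box (CCAAT) was found at 15 (60%) against 36.6%, and the GC box (GGGCGG) at 18 (72.0%) against 61.8%. The CCAAT box was present at 10 of the 19 promoters whose gene has an H3K4me3 region and at 5 of the 6 whose gene has none, so the letters were found in both. No entry was held for OSR1, OSR2, MEOX1, SOX7, SOX17, SOX18, TWIST1, TBX2, TBX3, TBX15, GATA4, GATA5, NKX2-5, BARX1, FOXF1, FOXC2, FOXL1, ALX1 or ALX4.

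The beta cell identity factors of the same cells stood at the other end of the range. Of 14 such factors 13 had a region, each of 4 kb or more, with a median width of 11077 bp, a median level of 259 and a median density of 25.2 per kb. PDX1, the master regulator of pancreas, had a level of 260.5 over 11552 bp, and ISL1, an islet LIM-homeobox factor, a level of 588 over 15448 bp. GATA4, with 7183 bp, had a width within their range of 4068 to 23885 bp, whereas its density of 13.7 per kb lay toward the low end of their range of 11.3 to 51.6 per kb. Other patterning genes were nearer to the mesoderm and endoderm factors. Of 30 neural patterning factors 21 (70.0%) had a region, with a median density of 11.6 per kb. Of 39 HOX genes 14 (35.9%) had a region, with a median density of 4.32 per kb. These lists were set side by side without a test.

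**Figure D5:**
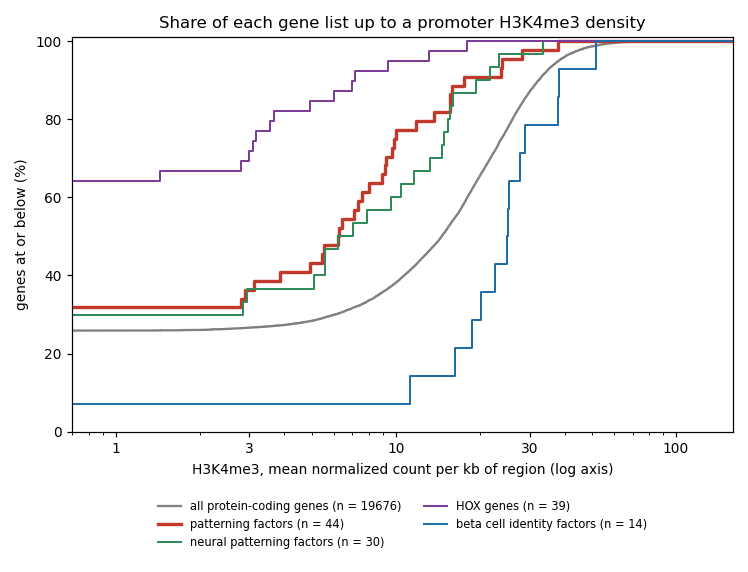
Share of each gene list, in percent, whose promoter H3K4me3 density is at or below the value on the log axis; genes with no region count from the left edge, so each curve starts at the share without a region. The patterning factors (red) run left of all protein-coding genes (grey), between the HOX genes and the beta cell identity factors and close to the neural patterning factors, with medians among genes with a region of 9.0, 19.0, 4.32, 25.2 and 11.6 per kb.

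Other genes that control germ layer formation, in signalling pathways or as transcription factors, were marked in different degrees. Of 52 such genes outside the factors studied, 42 (80.8%) had a region, with a median density of 11.1 per kb. All 10 receptors had one, with a median density of 17.4 per kb, and the BMP receptors BMPR1A (52.7 per kb) and BMPR2 (37.5 per kb) led them. All 8 signal transducers had one, with a median of 20.1 per kb, among them SMAD4 (28.8 per kb), the shared partner of the TGF-beta and BMP pathways. Ligands had a region at 8 of 13, with a median of 7.77 per kb. SHH had the highest density of the ligands, 34.7 per kb over 819 bp, and NODAL, the inducer of mesendoderm, had 7.11 per kb. Antagonists had a region at 4 of 7, with a median of 6.23 per kb, and GREM1 (21.2 per kb) was the highest. The other germ layer transcription factors had a region at 12 of 14, with a median of 9.61 per kb, close to the 9.0 per kb of the factors studied. SNAI2, a mesenchymal repressor, was the highest of them at 31.2 per kb over 3196 bp, while GSC, an early mesendoderm factor, was at 2.16 per kb.

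The labelled cell type was checked against fixed markers. All 10 beta cell markers had a promoter region, with levels from 6.94 at IAPP to 473 at SLC30A8 and 24.7 at INS. Their median density was 23.4 per kb, and 6 of the 10 were at or above the median density of all genes with a region. IAPP, G6PC2, ABCC8 and INS were below that median. IAPP (7.56 per kb) and G6PC2 (8.81 per kb) were also below the median density of the patterning factors with a region. Low density was thus also found at genes that mark beta cells. Of 6 mesenchyme markers 1 had a region (COL1A1, level 4.37), as had 1 of 4 endothelium markers (PECAM1, 17.6). A region was also found at 1 of 4 blood markers (CD68, 97.1) and 2 of 5 exocrine markers (at most 4.17). The COL1A1, PECAM1 and CD68 regions did not cover the canonical start, and that of PECAM1 lay outside the 4 kb around it. All 3 duct markers had a region, with levels from 3.54 to 24.1. A CpG ratio of at least 0.6 was found at 6 of the 10 beta cell markers and at none of the others. The median ratio was 0.33 for mesenchyme, 0.32 for endothelium, 0.11 for blood and 0.19 for exocrine markers. Of all genes with a ratio under 0.4, 28.8% had a region. Low counts in these lists therefore do not show that other cells were absent. The part of other cells in the levels of the mesenchymal factors was not tested, and in a bulk sample fewer cells with the mark and less of it per cell cannot be told apart.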

How the data were processed

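MINT-ChIP for H3K4me3 covered 4 control and 4 senescence-induced samples, and 16 samples of 2 other marks (H3K27me3 and H3K9me3) were not analysed here. Per the paper's methods and the labels, the authors used Bowtie2 for alignment (build hg38), samtools for file handling, HOMER to call H3K4me3 peaks and DESeq2 for comparison. How peaks were merged, how reads were counted and whether duplicates were removed is not given in the sources used here. The deposited table holds the position of each region and a signal, the mean over samples of counts that the authors normalized with DESeq2 size factors. Its 5 further columns hold the authors' own comparison of the 2 states (log2 fold change, standard error, test statistic, p-value, adjusted p-value) and were not used. Depth per sample is unknown. A longer region collects more reads, so density per kb was computed, with the width taken as end minus start.

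Start sites came from protein-coding transcripts of GENCODE release 44, and repeated symbols were counted once. The canonical start is that of the Ensembl canonical transcript, and exon, intron, upstream and downstream refer to that transcript. CpG ratios came from hg38 and printed promoters from the RefSeq table of GRCh38. The assignment was tested on simulated regions. The factors and gene lists were chosen with earlier results of these data known. Values in full are given for the strongest and weakest factor of each family and for those at or above the median density. Others were named after their values were seen. Python 3.11.15, numpy 2.4.6, pandas 2.3.3, scipy 1.17.1, pysam 0.24.0 and matplotlib 3.10.9 were used.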

Additional observations from a re-analysis of the deposited data

How the results depend on the processing

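No paired analysis was possible because the table holds no value per sample, and for the same reason no replicate could be left out. Under the alternatives run, the median level of the factors ranged from 6.41 to 12.1, against 7.42 as reported. The median density ranged from 7.81 to 11.8 per kb, against 9.0, and the median width from 633 to 999 bp, against 703 bp. The highest of each came with regions of a mean of at least 5 only. The number of factors at or above the median density of all genes was 3 or 4. With regions of a mean of at least 5 only, 19 factors (43.2%, against 68.9% of all genes) kept a promoter region in place of 30, and the 11 that lost it were EOMES, FOXF1, GATA2, GATA3, HAND1, MSX2, NKX2-3, SOX17, SOX7, TBX5 and TWIST1. The count was 27 (61.4%, against 72.2% of all genes) with a 1 kb window, 36 (81.8% against 78.1%) with a 5 kb window and 25 (56.8% against 71.6%) with the canonical start only. The canonical start alone lost EOMES, GATA2, GATA3, TBX4 and TBX5. With start sites of all transcripts, a choice made after the data were seen, the count was 31 (70.5% against 75.6%), TBX2 being added. With CpG taken over the whole H3K4me3 region the median ratio was 0.75. Low levels limit what the weakest regions can show.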

Other observations

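Within 10 kb of the canonical start, 7 of the 30 factors with a promoter region had a stronger region than the one taken. At PITX3 it was the promoter of GBF1, a regulator of Golgi traffic, with a level of 109.5 over 3963 bp from -7029 to -3066 bp relative to the start. At OSR1 a region that begins 9954 bp downstream of the start site and holds a start of LINC01376 had a level of 46.0 over 1671 bp, against 7.18 at the OSR1 start. At GATA2 a region from -5627 to -3391 bp had a level of 15.7 over 2236 bp, against 1.4 at the promoter. At EOMES a region over a start of LINC02084 had a level of 13.3, and at NKX3-2 a region from -5144 to -3550 bp had a level of 14.3. These values do not say which gene a region belongs to.

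FOXC2 and FOXL1 on chromosome 16 had no promoter region and share the same nearest region, which has a level of 14.7 over 1027 bp and lies 2423 bp from the start of FOXC2 and 14143 bp from that of FOXL1. Long noncoding RNA starts lay inside the promoter region of 4 of the 30 factors (TBX20, GATA6, PITX1 and OSR2).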
